A study of Mus musculus with 2 samples.

Results

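Annotated nonsense-mediated decay (NMD) transcripts are spliced RNAs that the reference annotation marks as likely targets of that pathway. A model was taken as a member when the authors classed it as known, so that its splice junctions were those of an annotated transcript, and when the annotation gave it the type nonsense_mediated_decay. By this rule 600 models of 537 genes had at least 1 read, of 22506 known models with reads and of 7186 annotated NMD models (8.35%). Replicate 1 read 426 of them and replicate 2 read 340. The annotation marks 4576 genes as having at least 1 NMD model. Long-read RNA sequencing reads a cDNA copy of an RNA molecule as 1 read, and the reads came from 2 libraries of wild-type C57BL/6J adrenal gland tissue, numbered as biological replicates of 1 group. The libraries are separate biosamples from The Jackson Laboratory that share 1 donor entry, so their spread may in part be technical. One label calls the tissue male, but the sex field reads not collected, and the age is unknown. No treatment, genotype or time was compared.

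NMD destroys messenger RNAs whose translation stops too early. In mammalian cells a stop codon is read as early mainly when an exon junction complex, which is left on the RNA upstream of each splice junction, lies well downstream of it: the helicase UPF1, with UPF2, UPF3 and the SMG proteins, then triggers decay. Many genes for splicing factors make such transcripts through a so-called poison exon or a retained intron, a known way of lowering their own output. A read count gives the level that is left after synthesis and decay, and these cannot be told apart here.

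The place where an NMD model leaves its coding partner decides where its reading frame ends, so the coding sequence at that place is shown for 5 members with different splicing changes. The partner is the protein-coding model of the gene with most reads. Each sequence is the GENCODE M21 transcript on mm10, written 5′ to 3′ in the sense of the RNA. It starts with the last 12 coding bases that both models share, and the stop codon of the NMD model is in capitals. Partner stretches are in lower case.
Ddx5-208 (retained intron, stop at chr11:106783954-106783956, minus strand): ccagagggctaggtTAG
Ddx5-201 (coding partner): ccagagggctagatgtg
Srsf3-201 (extra exon, stop at chr17:29039485-29039487, plus strand): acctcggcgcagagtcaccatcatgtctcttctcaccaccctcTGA
Srsf3-202 (coding partner): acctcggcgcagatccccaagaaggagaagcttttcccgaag
Dnajc5-204 (extra exon, stop at chr2:181548934-181548936, plus strand): ctgatgaaaggggagggcacTGA
Dnajc5-201 (coding partner): ctgatgaaagggaggctacagac
Tk2-202 (skipped exon, stop at chr8:104231228-104231230, minus strand): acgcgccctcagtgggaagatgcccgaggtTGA
Tk2-201 (coding partner): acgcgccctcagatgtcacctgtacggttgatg
Cyth2-203 (shifted splice site, stop at chr7:45808383-45808385, minus strand): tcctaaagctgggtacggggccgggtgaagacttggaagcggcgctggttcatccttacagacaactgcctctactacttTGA
Cyth2-202 (coding partner): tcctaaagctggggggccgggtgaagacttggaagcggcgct

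In Ddx5-208 the frame ran into the intron and ended with the stop codon 5 bases after the shared part. In Dnajc5-204 the stop codon ended 11 bases into an extra exon, and in Srsf3-201 34 bases into one. In Tk2-202 the exon after the skipped one was read in another frame for 21 bases, stop codon included. In Cyth2-203 a donor site 4 bases further on added 4 bases to the exon, after which the bases of the partner follow in another frame to the end of the stop codon, 71 bases from the start of the difference.

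Replicate 1 held 848782 reads, of which 615510 were known, and replicate 2 held 545229 and 395235. A single read was worth 1.18 CPM (reads scaled to a library of 1000000) in replicate 1 and 1.83 CPM in replicate 2. The known models read in replicate 1 were shorter, with a median length per read of 1648 bases against 2740 in replicate 2. Markers of the cortex summed to 43956 and 76608 CPM and those of the medulla to 10093 and 23122 CPM, while 5 kidney markers had 0 reads. Markers of other cells that the dissected tissue could hold summed to 1911 and 128 CPM for erythroid cells, 743 and 257 for macrophages, 138 and 827 for endothelium and 218 and 45.9 for adipocytes. The sums do not stand for each marker. In the medulla list Th (2831 and 1489 CPM) and Pnmt (694 and 160 CPM) were lower in replicate 2, whereas Dbh, Chga and Chgb were higher. Of the macrophage markers, Lyz2 and Cd68 were lower in replicate 2, and Adgre1 and Csf1r were higher. Of the endothelial markers, Cdh5 (6 and 2 reads) was lower, and Pecam1, Plvap and Tie1 were higher. In such bulk tissue fewer cells of a type and less RNA per cell cannot be told apart, and the part of cell makeup in the results was not tested.

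NMD models took a small share of the known reads. Replicate 1 had 1552 such reads, 0.252% of its known reads (95% exact Clopper-Pearson interval 0.240 to 0.265), and replicate 2 had 1435, 0.363% (0.345 to 0.382), a mean of 0.308% ± 0.0784 (SD, n = 2). The intervals do not overlap, and they cover counting error only. Of the other annotated types, retained-intron models took 1.43% and 1.55%, processed transcripts 0.4996% and 0.276%, and protein-coding models 94.5% and 96.6%. Within the genes that had an NMD read, NMD models took 3.28% of known reads in replicate 1 and 7.10% in replicate 2. A single model, Ddx5-208, held 1.80% of the NMD reads in replicate 1 and 28.4% in replicate 2. Without the 10 models of highest mean CPM the NMD share was 0.201% and 0.199%.

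Most members were seen in few reads. Of the 600 models, 260 (43.3%) had a single read over both libraries, 105 had 2 reads, 54 had at least 10 and 21 had at least 20. Both libraries read 166 models, which are 39.0% of those of replicate 1 and 48.8% of those of replicate 2. The median length was 1116.5 bases for the 260 members that replicate 1 alone had read, 2442.5 for the 174 of replicate 2 alone and 1975 for those in both. In 50 genes at least 2 NMD models were read. The most were the 5 of Tmem234, a gene for a transmembrane protein, whose most-read member Tmem234-210 had 28 of 131 known reads in replicate 1 and 0 of 4 in replicate 2; this gene was chosen after its values were seen.

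The 15 models with the highest mean CPM came from genes of many kinds, and their levels differed between the libraries. Ddx5-208 belongs to a DEAD-box RNA helicase that acts in splicing and transcription (chr11:106781548-106788494, minus strand) and stood at 33.0 CPM (28 reads) and 748 CPM (408 reads). Efhd1-202, of a calcium-binding protein of mitochondria (chr1:87264363-87310836, plus strand), stood at 61.3 CPM (52 reads) and 108 CPM (59 reads). Tesc-202, of the calcium-binding protein tescalcin (chr5:118027765-118061845, plus strand), stood at 107 CPM (91 reads) and 9.17 CPM (5 reads). The first of these was far higher in replicate 2, the last far higher in replicate 1, and the same held for their genes, with 153 and 1134 known reads for Ddx5 and 1051 and 27 for Tesc.

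Tk2-202, of the mitochondrial thymidine kinase, had 16 and 52 reads, Pcnp-205, of a nuclear protein, 27 and 34, and Zfand5-204, of a ubiquitin-binding zinc finger protein, 20 and 38. Ankrd39-203, of an ankyrin repeat protein, had 8 and 23 reads, Dnajc5-204, of the vesicle chaperone cysteine string protein, 6 and 22, Rbmx-205, of an RNA-binding protein, 8 and 18, and Ncaph2-209, of a condensin subunit, 7 and 15. These had higher CPM in replicate 2. Cyth2-203, of an exchange factor for ARF GTPases, had 31 and 8 reads, Hyi-202, of hydroxypyruvate isomerase, 35 and 1, Yaf2-202, of a Polycomb-associated protein, 24 and 5, E2f6-204, of a repressor of the E2F family, 27 and 2, and Slc35b1-202, of a transporter of the endoplasmic reticulum, also 27 and 2. Those 5 had higher CPM in replicate 1.

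**Figure D1:**
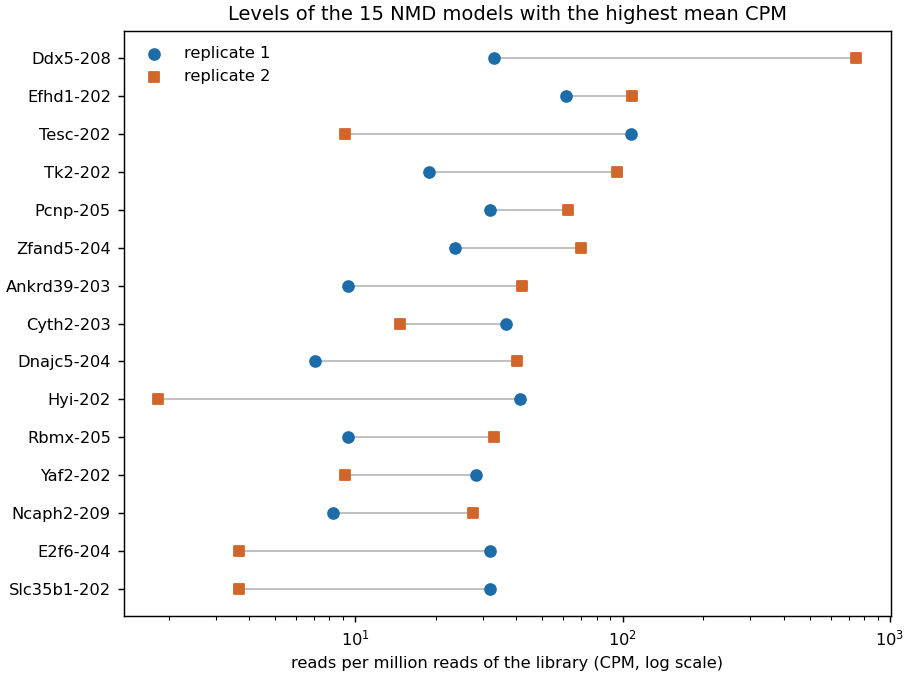
Level of the 15 NMD models with the highest mean CPM, in CPM on a log axis, with a circle for replicate 1 and a square for replicate 2. Ddx5-208 lies at 33.0 and 748 CPM, whereas Tesc-202 lies at 107 and 9.17 CPM.

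Within its gene, an NMD model was usually a minor form. Over the 131 genes with an NMD read and at least 20 known reads in each library, the median share was 1.67% in replicate 1 (quartiles 0.0805 and 4.08%) and 1.83% in replicate 2 (0 and 4.26%). Shares above 10% were found in 15 and 13 genes, 9 of them in both libraries: Cyth2, Pcnp, Tk2, Ddx5, Mtmr2, Rhbdd2, Efhd1, Dcaf11 and Ncaph2. In none of the 131 genes did the share pass 50% in either library, and in 22 it was below 1% in both. Of the 593 genes with an annotated NMD model and this many reads, 462 (77.9%) had no NMD read. With 20 reads in 1 library a gene can hide a share of up to 15% there (3 of 20 reads), and the limit over both libraries is lower. Low shares were thus not detectable in the thinly read genes.

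Cyth2 had the highest share, at 31 of 70 known reads in replicate 1 (44.3%, 95% exact interval 32.4 to 56.7) and 8 of 22 in replicate 2 (36.4%, 17.2 to 59.3). All of these reads are of Cyth2-203 (1512 bases), whose junctions differ from those of Cyth2-202 (2519 bases) by a donor shift of 4 bases only. Whether the alignment separates so small a shift could not be checked without the reads. Pcnp followed, and its NMD reads came from a pair of models: Pcnp-205 held 29.7% and 27.6% and Pcnp-206 held 5.49% and 8.94%. Tk2-202 held 16 of 50 reads (32.0%, 19.5 to 46.7) and 52 of 237 (21.9%, 16.8 to 27.8). Mtmr2-203, of a phosphoinositide phosphatase, held 8 of 31 and 9 of 59, Rhbdd2-205, of a rhomboid-like membrane protein, 8 of 50 and 3 of 21, and Ubxn2a-202, of an adaptor of the p97 ATPase, 10 of 55 and 3 of 43. For each of these models the intervals of the libraries overlap.

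**Figure D2:**
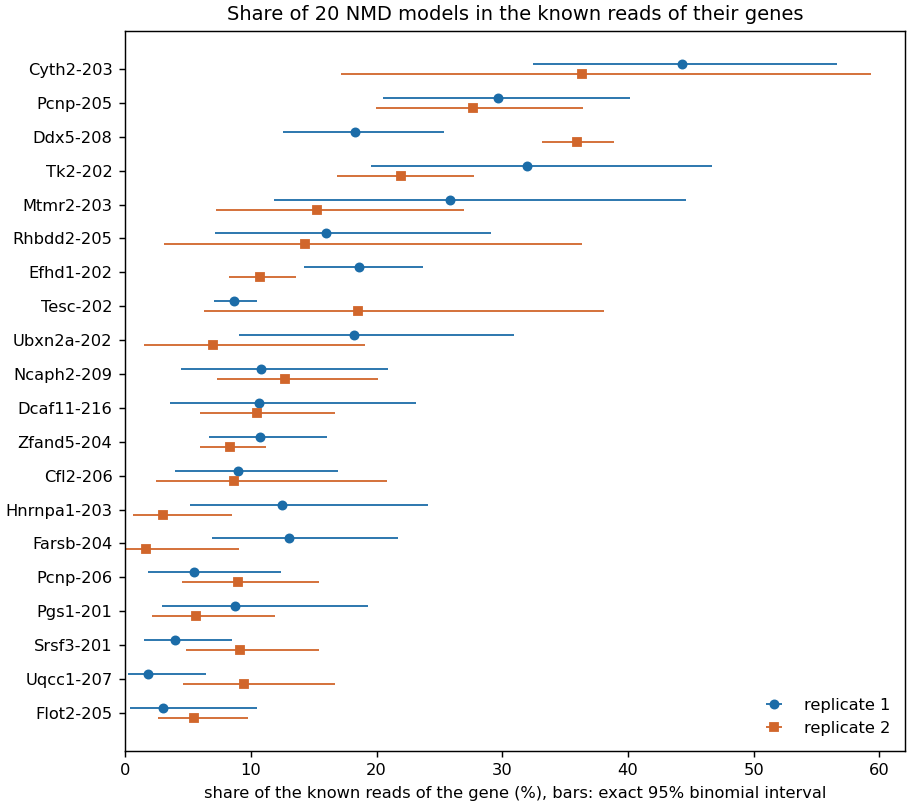
Share of each of the 20 NMD models tested for use in the known reads of its gene, in percent, with a circle for replicate 1, a square for replicate 2 and bars for the exact 95% binomial interval. The intervals of Ddx5-208 (18.3 and 36.0%) and Efhd1-202 (18.6 and 10.7%) do not overlap.

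The use of each known model within its gene was compared between the libraries by a two-sided Fisher's exact test, and p was adjusted by the Benjamini-Hochberg method over the 1985 known models tested. The test compares these libraries and not conditions, and it takes reads as independent. Of the 20 NMD models with enough reads, 2 passed, where 15.6% of all known models did. With a higher share in replicate 2 there was 1 (7.61% of all models), and with a lower share 1 (8.01% of all). A further 3 had an unadjusted p under 0.05. The median log2 odds ratio of replicate 2 over replicate 1 was −0.12 for the NMD models and 0.07 for all models tested.

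Ddx5-208 took 28 of 153 known reads of its gene in replicate 1 (18.3%, 12.5 to 25.4) and 408 of 1134 in replicate 2 (36.0%, 33.2 to 38.8). The log2 odds ratio was 1.31 (Fisher's exact test, adjusted p = 0.000116). Efhd1-202 took 52 of 279 (18.6%, 14.2 to 23.7) and 59 of 552 (10.7%, 8.24 to 13.6), with a log2 odds ratio of −0.94 (Fisher's exact test, adjusted p = 0.0176). Both models are close to their partners in annotated length, at 3593 and 3559 bases for Ddx5-208 and Ddx5-201, and 1726 and 1854 bases for Efhd1-202 and Efhd1-201. Against models within 20% of their annotated length only, 13 NMD models could be tested. Both passed again, with adjusted p = 0.000267 and 0.0282 in the same exact test, where 8.92% of all models so compared did. The reads set against them hardly changed: 725 in place of 726 for Ddx5-208 in replicate 2, and the same reads for Efhd1-202. Passing again is therefore no separate support. Reads are matched by junctions and their own lengths are not given, so this comparison cannot show what read length contributes. The next in order did not pass: Farsb-204, of a subunit of phenylalanyl-tRNA synthetase, had 12 of 92 and 1 of 59 reads (adjusted p = 0.0903, exact test), and Uqcc1-207, of an assembly factor of respiratory complex III, 2 of 110 and 10 of 106 (adjusted p = 0.0945, exact test). Where genes with at least 10 known reads in each library were let in, 4 of 33 NMD models passed, where 13% of all models did, and the added ones were Guf1-205 (11 of 25 and 0 of 13 reads) and Cyb5r1-205 (3 of 49 and 8 of 18).

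In 6 models the NMD form was the main one, above 50% of the known reads of its gene summed over both libraries, among genes with at least 20 known reads in the sum. These were picked for their share after the values were seen, so their shares are a description. Hyi-202 had 35 of 36 known reads of its gene in replicate 1 and the only one in replicate 2. The annotation types this gene as a polymorphic pseudogene, while every other member lies in a protein-coding gene. The coding partner of Hyi-202, Hyi-201, had 0 reads and is annotated with an intron of 2 bases. Rbmx-205 had 8 of 10 and 18 of 19 known reads, against 2 and 1 of the coding Rbmx-202. Ankrd39-203 had 8 of 13 and 23 of 29, against 4 and 5 of Ankrd39-201. E2f6-204 had 27 of 42 and 2 of 4, Meaf6-208, of a subunit of histone acetyltransferase complexes, 20 of 32 and 2 of 2, and Ppcdc-213, of an enzyme of coenzyme A synthesis, 10 of 21 and 5 of 7. With unannotated combinations of splice sites and unannotated sites counted too, Ppcdc-213 had 15 of 41 reads (36.6%) and was no longer the main form, and the other 5 models stayed above 50%. In each of the 6 genes at least one library had under 20 known reads.

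The members reached their stop codons by a few kinds of splicing change. Each was set against the coding partner of its gene, which 596 of them had (in 20 cases without a read of its own). A shifted splice site was found in 255 (42.8%), a skipped exon in 167 (28.0%), an extra internal exon in 140 (23.5%), a different last exon in 63, a retained intron in 33, a different first exon in 27, a further intron in the last exon in 20 and one in another exon in 2. In 489 models (82.0%) there was only 1 kind of change. By reads, shifted sites held 48.0% and 31.5% of the NMD reads, skipped exons 23.7% and 17.2%, extra exons 19.7% and 13.8%, and retained introns 4.65% and 30.7%. Without Ddx5-208 the share of retained introns was 2.90% and 2.85%.

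The bases added or lost were mostly no multiple of 3. The annotation assigns this type by the place of the stop codon, which depends on the frame. The counts that follow are therefore a description. Of 110 models whose only change was 1 skipped exon, 108 lost a number of bases that is not divisible by 3, with a median of 105 bases. Of 189 with 1 shifted splice site only, 170 did, with a median shift of 49 bases; 89 shifts were at the donor and 100 at the acceptor, and 31 were of at most 10 bases. Models with only such small shifts (32 models) held 13.5% and 3.48% of the NMD reads. Whether the alignment separates shifts of so few bases was not tested, as aligner and read correction are not given. Of 98 with 1 extra exon only (median 99.5 bases, 32 to 456), 69 were not divisible by 3, and of the other 29 the stop codon lay inside the exon in 28. The extra exon held the stop in 85 of the 98.

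**Figure D3:**
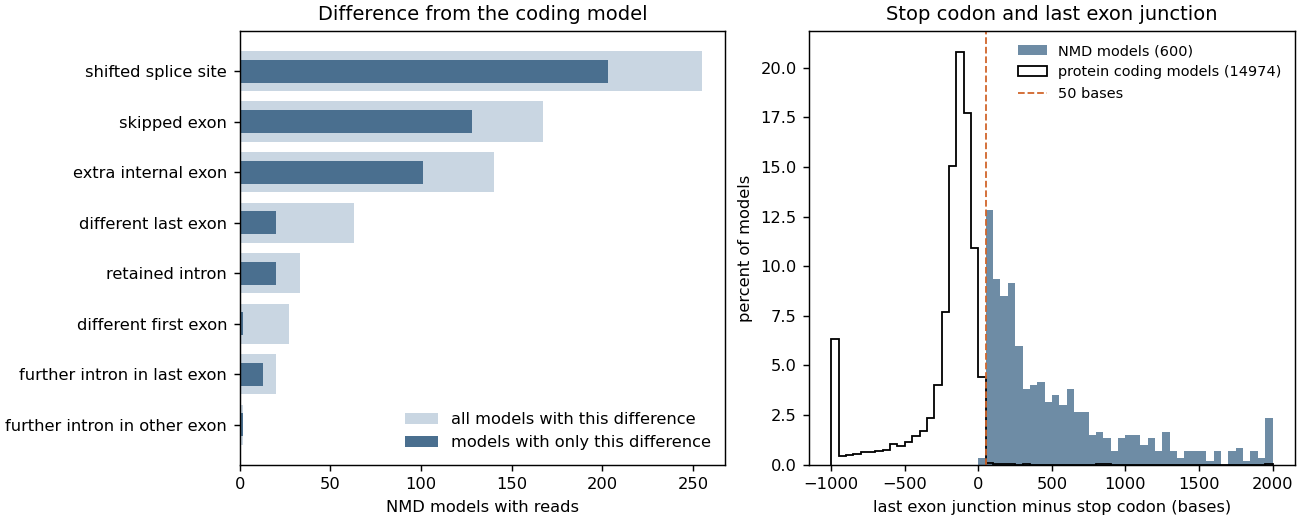
Left, number of NMD models with reads by their difference from the coding model of the gene, with light bars for all models with a difference and dark bars for those with only that one. Right, distance in bases from the stop codon to the last exon junction, positive where the junction lies downstream, in percent of 600 NMD models (filled) and 14974 spliced protein-coding models (line), with values beyond the axis in the end bins; the NMD models lie at 29 bases or more.

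The distance of the stop codon from the last junction is how the annotation assigns this type, so it is given as a description. It was above 50 bases in 597 of the 600 models, with a median of 350 bases (quartiles 163.75 and 712), and in 45 of 14974 spliced protein-coding models with reads (0.301%). The NMD models had a median of 3 junctions after the stop, and 137 had 1. Their coding part had a median of 263.5 bases, against 1017 in the partners. In 43 members the annotation marks the start of the coding part as not found, so that part is incomplete. Models so marked were not left out when start codons were compared. Of 593 models that could be compared, 528 had the start codon of the partner. Of these, 506 left its coding sequence before its stop, in the same frame or another, at a median of 24.7% of its coding length. They met their own stop after a median of 42 further bases with the stop codon included (quartiles 18 and 86), within 30 bases in 200 models.

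The stop lay in a coding part of the partner in 344 models (58.0%), in an extra internal exon in 113 (19.1%), in other sequence outside its exons in 103 (17.4%) and at the partner's own stop in 27 (4.55%). The stop codons were TGA in 54.5%, TAA in 22.8% and TAG in 22.7% of the members, against 50.97%, 26.1% and 22.9% of the protein-coding models.

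Single members show each kind. Ddx5-208 kept the intron at chr11:106782694-106783958 (1265 bases), and its stop lay 1485 bases before the last junction. Its annotated length is near that of Ddx5-201 because its internal exons sum to 2662 bases against 1397 and its last exon is annotated with 709 bases against 1902; since known models are matched by junctions, the ends of the reads themselves are not given. Efhd1-202 kept the frame and stop of Efhd1-201 and differed by a further intron at chr1:87309847-87309971 (125 bases), which put a junction 51 bases after the stop. Tk2-202 lacked the exon at chr8:104236772-104236845 (74 bases) and Zfand5-204 that at chr19:21277655-21277758 (104 bases). Extra exons were those of Dnajc5-204 at chr2:181548926-181549000 (75 bases), Yaf2-202 at chr15:93317539-93317608 (70 bases) and E2f6-204 at chr12:16813847-16813912 (66 bases). The last has a length divisible by 3, and its stop codon ended 33 bases after the coding sequence left that of E2f6-201. Tesc-202, like Cyth2-203, had a donor site a few bases further on (5 bases), and Pcnp-205, Slc35b1-202 and Ncaph2-209 lost 52, 25 and 17 bases by a shifted site.

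**Figure D4:**
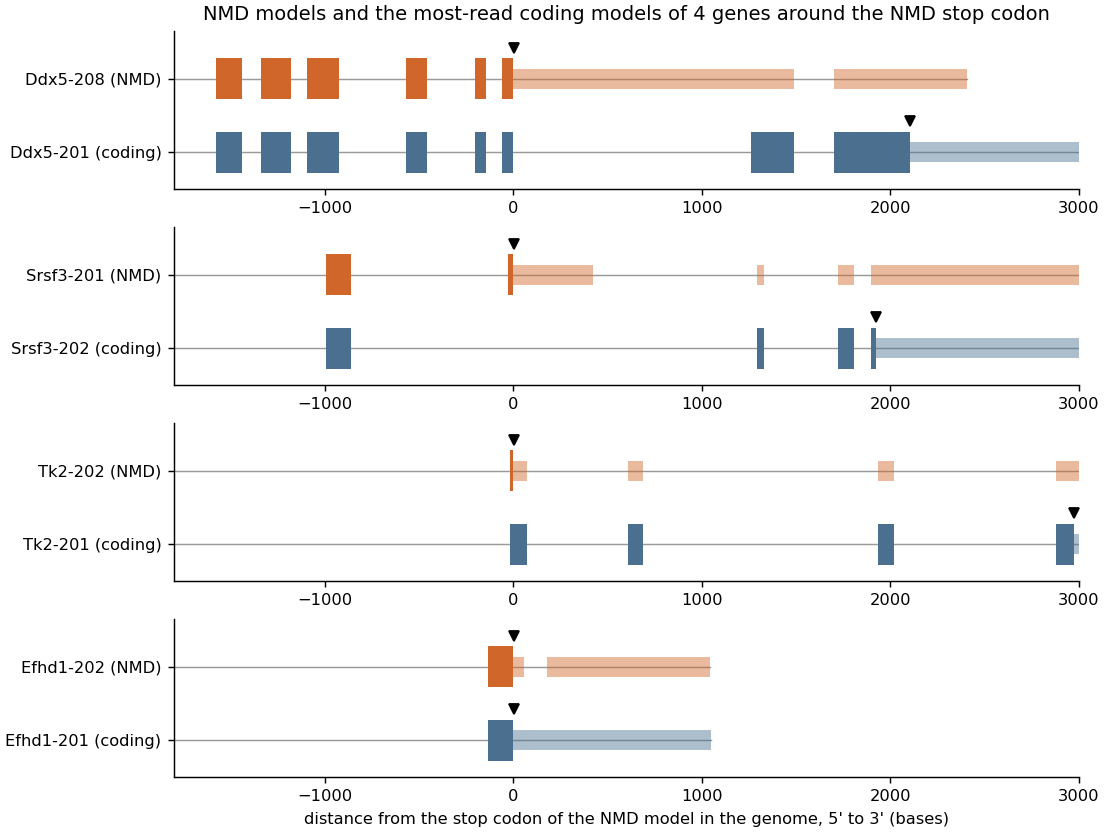
Exon maps of 4 NMD models (orange) and their coding partners (blue), by distance in bases from the stop codon of the NMD model along the genome in the direction of transcription, with tall boxes for coding and low pale boxes for untranslated parts, and triangles at the stop codons. The stop lies in the retained intron of Ddx5-208 (1265 bases), in the extra exon of Srsf3-201 (456 bases), after the skipped exon of Tk2-202, and at the partner's own stop in Efhd1-202, 51 bases before a further junction.

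By annotated length, NMD models took a smaller share of known reads among long models than among short ones. The lengths of the reads themselves are not given. Among known models under 1000 bases, NMD models took 0.396% of reads in replicate 1 (0.366 to 0.429) and 1.11% in replicate 2 (0.923 to 1.33). From 1000 to 1500 bases they took 0.235% and 0.629%, from 1500 to 2000 bases 0.269% and 0.327%, and from 2000 to 2500 bases 0.181% and 0.312%. From 2500 to 3000 bases the shares were 0.179% and 0.209%, from 3000 to 4000 bases 0.194% and 0.627%, and from 4000 bases 0.0572% (0.0380 to 0.0826) and 0.111% (0.0865 to 0.140). Without Ddx5-208 the shares from 3000 to 4000 bases were 0.132% and 0.183%. Under 1000 bases, Zfand5-204 gave 20 of 611 NMD reads in replicate 1 and 38 of 120 in replicate 2. It is annotated with 465 bases and its partner with 7385, and the class was not recomputed without it. In every length class replicate 2 had the higher share, with overlapping intervals at 1500 to 2000 and 2500 to 3000 bases, though its NMD reads came from longer models: 8.36% of them were under 1000 bases, against 39.4% in replicate 1. The members had a median length of 1688 bases and their partners one of 2383.5, and 451 of 596 were shorter than the partner.

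**Figure D5:**
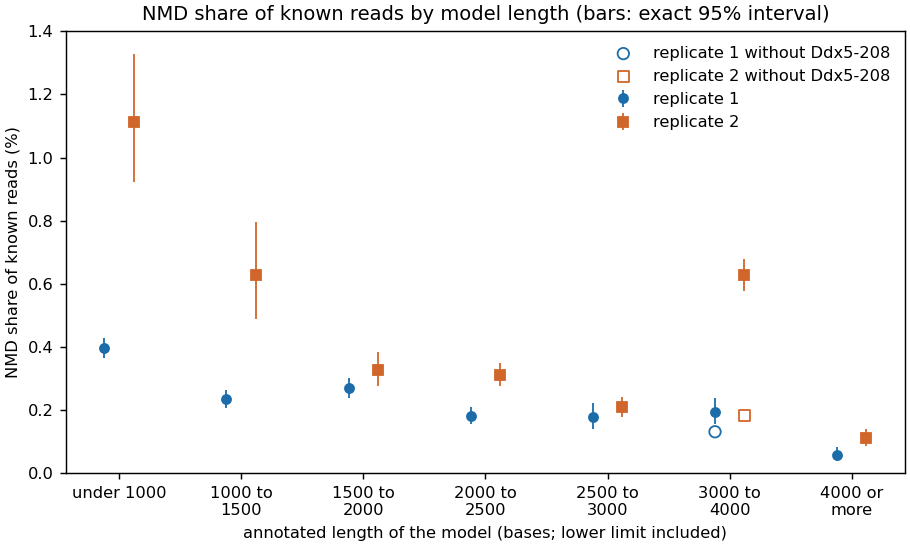
Share of NMD models in the known reads, in percent, by the annotated length of the model in bases, with circles for replicate 1, squares for replicate 2, bars for the exact 95% interval and open symbols without Ddx5-208. The shares go from 0.396 and 1.11% under 1000 bases to 0.0572 and 0.111% from 4000 bases, with the point of replicate 2 at 3000 to 4000 bases (0.627%) standing out.

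Of the NMD reads of splicing factor genes, Ddx5-208 gave 28 of 65 in replicate 1 and 408 of 458 in replicate 2. Of 55 such genes, 45 have an annotated NMD model, and 19 models of 16 genes were read. All of them together took 65 of 2176 known reads of the list in replicate 1 (2.99%, 2.31 to 3.79) and 458 of 4085 in replicate 2 (11.2%, 10.3 to 12.2). Of the known reads of the 45 genes with an annotated NMD model that was 3.73% and 13.7%. Without Ddx5-208 the shares of the whole list were 1.72% (1.22 to 2.37) and 1.36% (1.01 to 1.79), against 0.248% and 0.260% of all known reads without it. All known reads include those of genes without an annotated NMD model, so these bases are not alike. Hnrnpdl-201, of an hnRNP-like protein, had 7 of 17 and 14 of 94 reads; it keeps the stop of its partner and has 2 further introns after it (364 and 650 bases). Srsf3-201, of an SR protein, had 6 of 150 and 12 of 131 reads, and its extra exon at chr17:29039454-29039909 is a poison exon in the sense given above, with the stop 548 bases before the last junction. Hnrnpa1-203, with a different last exon, had 7 of 56 and 3 of 100 reads. The rest had at most 6 reads each over both libraries, among them Srsf6-201 (2 and 4), Srsf2-202 (3 and 3) and Tardbp-201 (5 and 0).

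In the other lists fewer of the genes have an annotated NMD model at all. The 15 steroid synthesis genes had 11 of 37236 known reads in replicate 1 and 2 of 45519 in replicate 2; the 2 of them with an annotated NMD model gave all of these, with Mrap-204 (6 and 1 reads) and Mrap-202 (4 and 1) of the corticotropin receptor accessory protein and Fdx1-203 (1 and 0) of a ferredoxin. Of the known reads of these 2 genes that was 0.627% (0.313 to 1.12) and 0.694% (0.0842 to 2.49). Of the chromaffin cell genes, Th and Scg3 have an annotated NMD model and had 0 NMD reads among 2083 and 598 known reads, which allows shares of up to 0.144% and 0.502%. Ribosomal protein genes had 17 NMD reads of 45652 in replicate 1 and 3 of 2963 in replicate 2, from 9 models, which was 0.169% and 0.488% of the known reads of the 19 genes with an annotated NMD model. Respiratory chain genes were taken by the start of their symbols, which lets in assembly factors such as Sdhaf2. They had 46 of 27180 and 4 of 4992 from 10 models, with 7 and 1 of these reads from Sdhaf2. The list total was 0.540% and 0.169% of the known reads of its 22 genes with an annotated NMD model. Of the 10 models, Ndufa7-202, of a subunit of complex I, gave 27 of 504 known reads of its gene in replicate 1 and 0 of 9 in replicate 2. Translation factors had 3 and 6 NMD reads, and the polyamine genes 3 and 0, all of Sat1-207.

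Among the 28 genes of the NMD pathway itself, 6 have an annotated NMD model, and 0 NMD reads were found among their 73 and 75 known reads, which allows shares of up to 4.11% and 4%. All 28 genes had reads. Each gene was set against the rest of the library by a two-sided Fisher's exact test, with p adjusted by the Benjamini-Hochberg method over 9879 genes. By this test 17 of the 27 tested genes differed between the libraries, where 64.4% of all genes did; 8 were higher in replicate 2 (36.6% of all genes) and 9 lower (27.9% of all). The median log2 ratio of replicate 2 over replicate 1 was −0.21, against 0.38 over all genes tested. Under TMM scaling, which moved the median of all genes to −0.06, 7 were higher and 11 lower, where 27.6% and 33.8% of all genes were. The helicase gene Upf1 had 2 and 1 reads, too few to test, and Upf2 had 9 and 4.

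Of the exon junction complex, the core subunit Eif4a3 stood at 356 and 103 CPM, Magoh had 46 and 1 reads, Magohb 11 and 0, and Rbm8a 47 and 15, and these were lower in replicate 2, as were the junction-associated Rnps1 (56 and 19 reads) and the UPF3 genes Upf3a (39 and 3) and Upf3b (24 and 4) and the helicase genes Ruvbl1 (89 and 25) and Ruvbl2 (70 and 10). Casc3 had 11 and 4 reads and did not pass. The SMG genes Smg5 (14.1 and 71.5 CPM) and Smg8 (3 and 12 reads) were higher in replicate 2, as were the helicase gene Dhx34 (2 and 19) and the cap-binding Ncbp1 (25.9 and 165 CPM). The termination factor genes Gspt2 (5 and 50 reads) and Etf1 (70.7 and 147 CPM) and the poly(A)-binding Pabpc1 (37.7 and 78.9 CPM) were higher too, the last not under TMM scaling. With the trend of the ratio along transcript length removed, 9 of 20 genes passed, where 41% of all genes did, 3 higher (19.9% of all) and 6 lower (21.1% of all). Casc3, Gspt1 and Ncbp2 were then among the lower ones. Magoh, Magohb, Eif4a3, Rnps1, Ruvbl1, Smg5, Smg8 and Pabpc1 no longer passed. The ratio of Etf1 turned from 1.04 to −0.32, and it did not pass.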

How the data were processed

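Whole read counts per transcript model, not normalized, were deposited by the authors for each library, with model lengths and exon numbers and an annotation of all models on mm10 with GENCODE M21. Unannotated models are credited to TALON, per the file headers, with aligner, read correction and platform not given in the sources used here. Annotation type, exons and lengths of the annotated NMD models were the same in the deposited annotation and in GENCODE. Known reads are those of models classed as known, and known models are matched by junctions, so annotated lengths are not those of single reads. Stop codons, exon changes and sequences were computed from the GENCODE files.

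Members, gene lists and tests were chosen with earlier results of these data known. Models named are the 15 of highest mean CPM, the 10 of highest mean share among genes with at least 20 known reads in each library, those that passed the test of use (up to 10 a direction) and those with at least 10 reads in a listed gene, beside the genes of the NMD pathway list; further models that make up a small count are named after their values were seen. The values of 1 gene of that list are not reported here. Model use was tested for known models with at least 10 reads in genes with at least 20 known reads in each library, and gene level for genes with at least 10 reads, at a threshold of 0.05; log2 ratios of genes are after adding 1 CPM. Shares carry exact Clopper-Pearson 95% intervals, and a count of 0 was given a limit of 3 counts. The alternatives changed the denominator, read minimums, length, scaling (TMM of edgeR 4.0.16 and size factors of DESeq2 1.42.0, R 4.3.3), the partner model and the libraries used. Python 3.11.15 with numpy 2.4.6, pandas 2.3.3, scipy 1.17.1 and matplotlib 3.10.9 was used, and the scripts were tested on simulated data.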

Additional observations from a re-analysis of the deposited data

How the results depend on the processing

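The NMD share of known reads (0.308%) was 0.223% of all reads, 5.19% within the genes with an NMD read and 0.2001% without the 10 models of highest mean CPM, and single libraries gave 0.252 to 0.363%. The median share per gene (1.75%) was 2.06% with at least 10 known reads a gene, 1.51% with at least 50 and 0 over all genes with an annotated NMD model, and single libraries gave 1.67 to 1.83%. By length class single libraries gave 0.396 to 1.11%, 0.235 to 0.629%, 0.269 to 0.327%, 0.181 to 0.312%, 0.179 to 0.209%, 0.194 to 0.627% and 0.0572 to 0.111%, from the shortest to the longest. Ddx5-208 and Efhd1-202 passed under all 7 alternatives of the test of model use. Most of these left the reads of both models unchanged and altered only the number of models in the adjustment. With unannotated combinations of splice sites and unannotated sites counted too, the log2 odds ratios were 1.24 and −0.93. The length limit changed the reads of Ddx5-208 only, with a ratio of 1.31. The count of NMD models that passed rose from 2 to 4 with at least 10 known reads a gene. With the length trend removed, 9 of 20 genes of the NMD pathway passed, against 17 of 27 before. Of the 20 genes, 8 passed before and no longer did, 2 passed only then, 2 changed sign and 8 kept their outcome. The 2 that changed sign were Gspt1, from 0.43 to −1.03, and Etf1, from 1.04 to −0.32. The cause was not tested. Under TMM and DESeq2 scaling 18 passed, 7 higher and 11 lower. With the longest coding model as partner there were 51 different first exons in place of 27, 31 further introns in the last exon in place of 20 and 4 in other exons in place of 2. Alternatives chosen after seeing the data were those without Ddx5-208, without small splice site shifts, over all annotated genes and with at least 2 reads a model. No paired analysis was possible because the series holds 1 group. Single reads behind 43.3% of the models and 20 reads behind a gene limit what low shares can show.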
